A study of Hansenula anomala with 15 samples.

Results

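The genes described here encode the proteins of the cytosolic ribosome of the yeast Wickerhamomyces anomalus. They were taken as all genes whose deposited KOG description (a catalogue of eukaryotic protein families) names a 40S, a 60S or a 60S acidic ribosomal protein and not a mitochondrial one, which gave 92 of the 6571 genes in the count table. By that text 34 belong to the small (40S) subunit, 47 to the body of the large (60S) subunit and 5 to the large subunit's stalk. For WICANDRAFT_80356 the sources disagreed: its KOG text names S2 of the small subunit and its KEGG entry a large subunit protein, so it was kept out of the subunit split. The last 5 are named otherwise by their RefSeq symbols and are described apart: RLP7 and RLP24 (ribosome assembly factors), SNU13 (a splicing and small nucleolar RNA protein), MRPL38 (a mitochondrial ribosomal protein) and UBI4 (polyubiquitin). A RefSeq symbol was found for 59 of the 92. The others are given by protein family and locus tag. KOG family numbers often follow mammalian usage and differ from yeast symbols, as for RPS1B, which stands under S3A, and RPL20B, under L18A.

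The RNA came from whole broth of an apricot fermentation with W. anomalus, which the organism label calls Hansenula anomala. Samples were taken at the start and after 16, 32, 48 and 64 h, each time point having 3 libraries labelled as biological replicates, and polyadenylated RNA was sequenced. The libraries of the start are labelled 0 h. No strain, genotype or added agent separates the groups: they differ by fermentation time alone, and the 0 h samples are the starting point of each comparison with it. Reads were counted on yeast genes only, so other organisms that the broth may have held were not measured. The question put to the data here was how the ribosomal protein transcripts moved over the fermentation, and whether the subunits and the copies of duplicated genes moved alike.

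A cytosolic ribosome holds each of its proteins in equal number, apart from the stalk, where P0 carries pairs of the acidic proteins P1 and P2 that recruit elongation factors. In budding yeast the genes of these proteins are known to be transcribed together: nutrient signals through the TOR kinase act on factors such as Rap1, Ifh1 and Sfp1, and the transcripts are abundant in growing cells and scarce in starved or stressed ones. In Saccharomyces cerevisiae many of the genes exist as a pair of copies with near-identical products.

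Libraries held 17.6 to 40.1 M counts, and the lowest count of any member in any library was 28, so all 92 passed the filter on low counts. Levels are counts per 1 M counts (CPM) after scaling by TMM, in the order of replicates 1, 2 and 3, and changes are log2 fold changes from edgeR's quasi-likelihood fit of all 15 libraries, with Benjamini-Hochberg adjusted p over 6327 genes and an approximate SE. Genes past an adjusted p of 0.05 are said to have risen or fallen. A few libraries stood apart from their group. The best Spearman's rho of 16 h replicate 2 with its own group was 0.742, and that of 64 h replicate 3 was 0.837, against 0.951 with a library of another time point. The best rho of 32 h replicate 3 was also with another time point (0.965, own group 0.886). So were those of 48 h replicate 1 (0.954, own group 0.935) and 48 h replicate 2 (0.965, own group 0.955). In 0 h replicate 3 short genes were high relative to its replicates. Across genes, its deviation from the mean of the group's other libraries had a rho of -0.478 with gene length. For both of its replicates this rho was 0.418, but the mean they were set against holds replicate 3, so these values are not independent. The members are short (median gene span 737.5 bp against 1200 bp over all genes), and their median deviation in that library was 1.06 on the log2 scale. It was -1.62 in 64 h replicate 3. Counts of called members that rest on 0 h replicate 3, 16 h replicate 2 or 64 h replicate 3 are given with and without them. Values of single genes, shares and related lists are given from all 15 libraries.

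Summed over the 92 genes, the members took 4.54%, 5.29% and 6.35% of all counts in the 0 h libraries, and 0.992%, 0.697% and 0.821% in those of 16 h. The 32 h libraries held 2.77%, 2.46% and 3.30%, followed by 1.64%, 2.77% and 2.15% in those of 48 h. The last time point, 64 h, gave 5.70%, 5.70% and 2.67%. The 16 h libraries lay below every other library. The replicates of 64 h did not lie together: replicates 1 and 2 reached the 0 h range, while replicate 3 lay within that of 32 h. Shares are not scaled by TMM, so they depend on what else each library held. The TMM factors were 0.389 to 0.637 at 16 h and 1.58 to 1.83 at 48 h. After TMM scaling 16 h did not lie below 48 h. The members' median log2 deviation from each gene's mean over all libraries was -0.73 ± 0.51 at 16 h and -1.01 ± 0.38 at 48 h (SD, n = 3). With bulk RNA from broth, fewer growing cells and less ribosomal protein RNA per cell cannot be told apart.

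**Figure D1:**
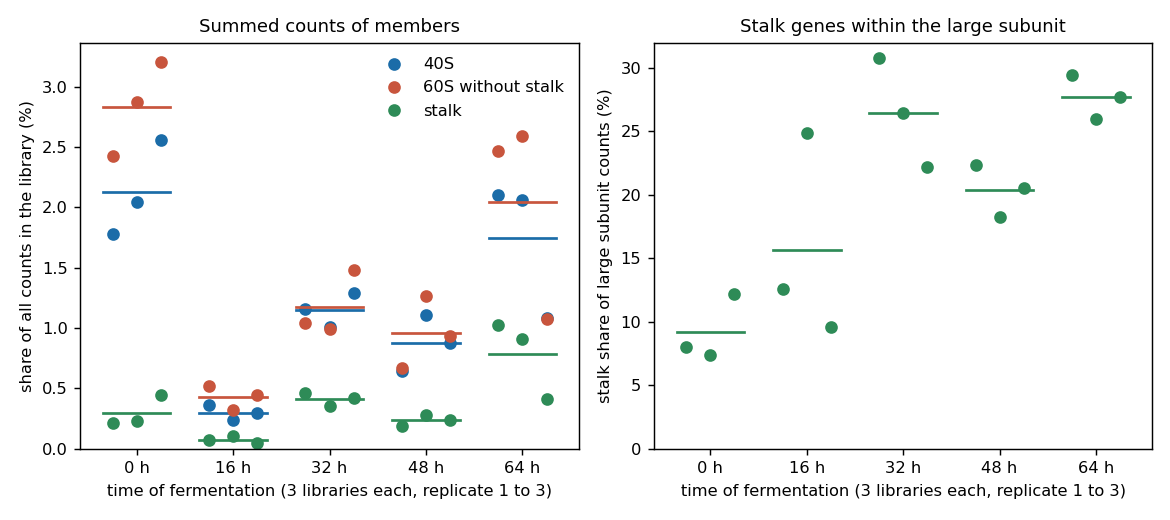
Left, percent of all counts in each library (y axis) that fell on the 40S, 60S and stalk members, by time of fermentation; right, percent of large subunit counts that fell on the 5 stalk genes. Points are single libraries and lines are means of 3. By these unscaled shares both subunits were lowest at 16 h. The stalk's part of the large subunit counts was 9.22% at 0 h and 27.7% at 64 h.

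From 0 h to 16 h transcripts of both subunits fell together. Of the 92 members 75 fell and 0 rose, against 17.8% of all genes tested that fell and 22.6% that rose. The fold change was below 0 in 92 of 92 members, with a median of -2.37 (all genes 0.09) and a range of -5.01 to -0.34. By subunit, 31 of the 34 genes of the 40S fell (median -2.42), 39 of the 47 of the 60S body (median -2.62) and 3 of the 5 of the stalk (median -1.42). DESeq2 called 83 falls (all genes 19.9%) and limma-voom 78 (18.2%). Rises by either numbered 0 (all genes 24.7% and 20.8%), and 0 members had an unadjusted p under 0.05 for a rise. Without 0 h replicate 3 and 16 h replicate 2 together, a choice made after seeing the data, 56 fell (all genes 17.4%), 55 of them among the 75. Without 0 h replicate 3 alone, 62 fell (all genes 16.8%) with a median of -1.98.

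**Figure D2:**
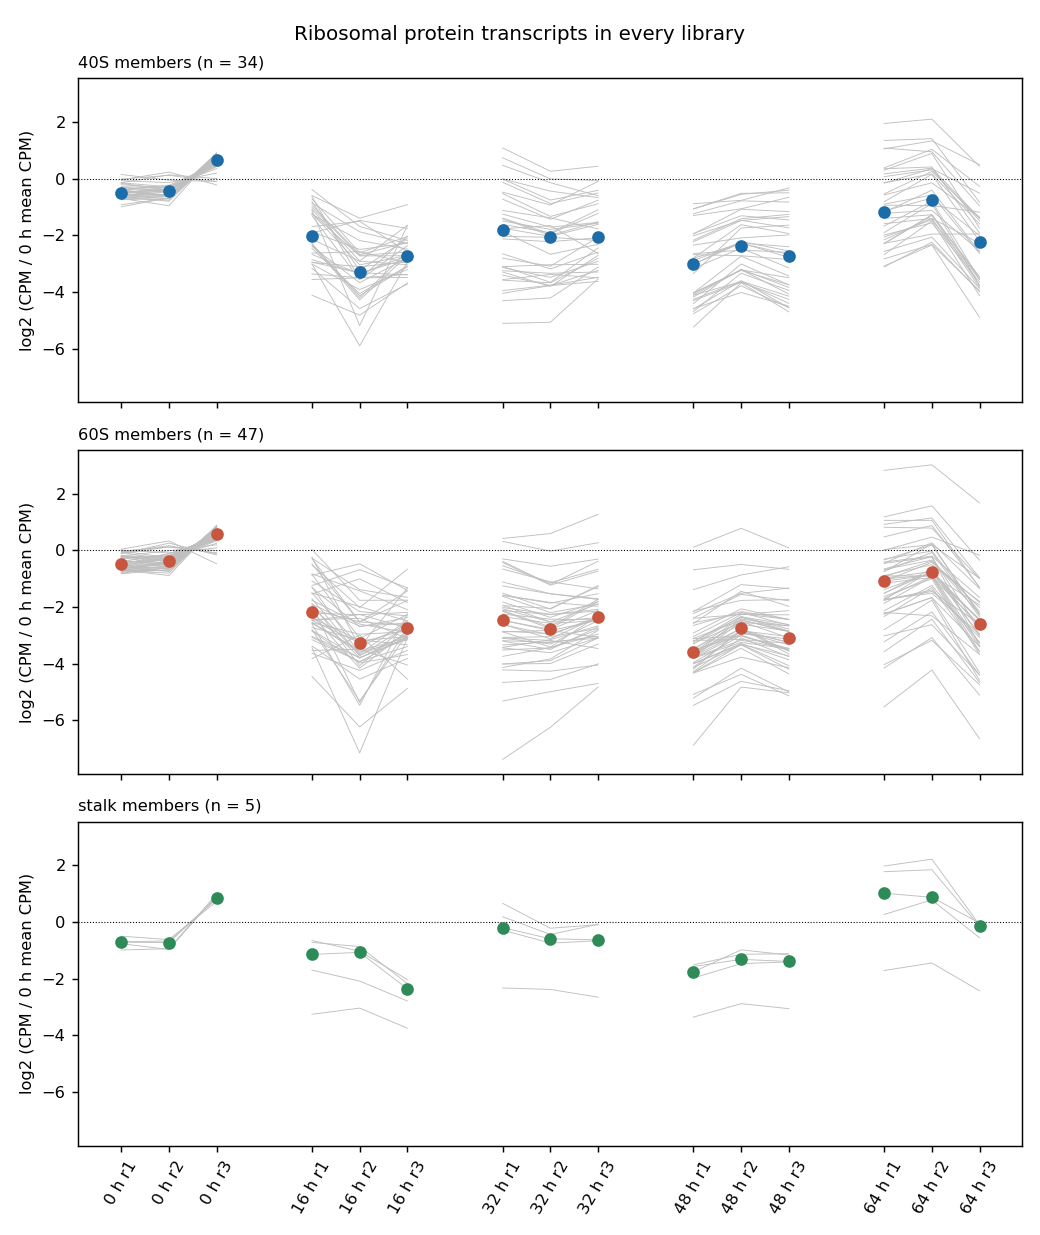
Log2 of each member's CPM over its own 0 h mean (y axis) in each of the 15 libraries (x axis), for the 40S, 60S and stalk genes; grey lines join the replicates of a gene and large points are medians over genes. All medians of the 16 h, 32 h and 48 h libraries lie below 0, and in 64 h replicates 1 and 2 the stalk median lies above 0.

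The largest fall was that of RPL39, whose product is a very small protein lining the tunnel through which the growing chain leaves the ribosome. RPL39 stood at 134, 159 and 346 CPM at 0 h and 9.75, 2.84 and 7.28 at 16 h (log2 change -5.01 with SE 0.62, adjusted p = 3.3e-05), which is 32.2-fold lower. The values of the time points did not come near each other, and the level stayed low afterwards: 5.35, 6.72 and 8.22 CPM at 32 h, then 4.81, 8.65 and 6.88 at 48 h and 12.02, 25.2 and 6.18 at 64 h. Other proteins sit around the mouth of that tunnel, where nascent chains meet chaperones and the signal recognition particle. Of the 8 genes for proteins at the rim or lining of the tunnel, 7 fell at 16 h (median -3.23). That share was near the 83.0% of the whole 60S body (median -2.62), of which they are part, while 17.8% of all genes fell. No difference between them and the rest of the 60S body was tested. RPL35A stood at 477, 579.6 and 1190.1 CPM at 0 h and 72.1, 32.1 and 53.2 at 16 h (log2 change -3.84 with SE 0.57, adjusted p = 0.000129). RPL22A and RPL31B fell by similar amounts, with log2 fold changes of -3.67 (adjusted p = 3.07e-05) and -3.46 (adjusted p = 7.13e-05). RPL25, whose product is a docking site for the signal recognition particle in S. cerevisiae, had -3.004 (adjusted p = 0.000868). The exception was RPL19A, at 767, 682 and 1969 CPM at 0 h and 939, 435 and 360.3 at 16 h (-0.98, adjusted p = 0.176). Its 16 h replicate 1 lay above 0 h replicates 1 and 2.

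Within the 60S body, the proteins that bring 5S rRNA into the ribosome are L5 and L11. RPL5 fell by 2.48 on the log2 scale (adjusted p = 0.00655) and RPL11B by 3.13 (adjusted p = 0.000772). Other proteins lie nearest the site of peptide bond formation. Of their genes, RPL2A fell, from 1423, 1290.1 and 2744 CPM at 0 h to 731, 280.4 and 351 CPM at 16 h (log2 change -2.002 with SE 0.56, adjusted p = 0.0107). RPL3 stood at 1774, 1491 and 2133 CPM at 0 h and 1513, 168 and 714 at 16 h (log2 change -1.17 with SE 0.75, adjusted p = 0.227) and RPL10 at 1709.6, 1595 and 1804 CPM at 0 h and 1188, 419 and 1072 at 16 h (log2 change -0.93 with SE 0.56, adjusted p = 0.2). RPL3 and RPL10 missed the threshold, and no difference between these genes and RPL2A was tested. L10 is among the last proteins to join the subunit. In all of these, 16 h replicate 2 held the lowest 16 h value, and for RPL3 and RPL10 the other 16 h libraries lay closer to 0 h than replicate 2 did. The L27 gene WICANDRAFT_36077 had 277, 359 and 269 CPM at 0 h and 27.9, 2.13 and 35.4 at 16 h (log2 change -3.79 with SE 0.92, adjusted p = 0.0046), and the L9 gene WICANDRAFT_35384 had 465, 549 and 1388 CPM at 0 h and 64.3, 42.4 and 69.4 at 16 h (log2 change -3.77 with SE 0.56, adjusted p = 0.000129). Both fell, and both belong to gene pairs treated further on.

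In the small subunit the largest falls were those of RPS17B and RPS6A. RPS17B, for a protein of the 40S head, stood at 334, 394 and 1172 CPM at 0 h and 36.6, 22.5 and 49.4 at 16 h (log2 change -4.13 with SE 0.58, adjusted p = 8.37e-05). RPS6A encodes the protein that TOR-dependent kinases phosphorylate, and it stood at 309, 340.4 and 666 CPM at 0 h and 48.95, 18.3 and 33.3 at 16 h (log2 change -3.71 with SE 0.59, adjusted p = 0.000235). In both, every 16 h value lay far under every 0 h value. RPS20 and RPS12, for head and beak proteins, had -3.51 (adjusted p = 8.17e-05) and -3.33 (adjusted p = 0.0002). The genes for proteins at the mRNA entry fell by smaller amounts, a difference that was not tested: RPS3 had 1062, 938 and 2364 CPM at 0 h and 621, 219.8 and 221 at 16 h (log2 change -2.04 with SE 0.54, adjusted p = 0.00768) and RPS2 had 1749, 1466 and 5319 CPM at 0 h and 1405, 435 and 473 at 16 h (log2 change -1.88 with SE 0.65, adjusted p = 0.0305). For RPS2 the 16 h replicate 1 value lay close to that of 0 h replicate 2. RPS31, whose product is made as a fusion of ubiquitin with S27a, fell from 945, 944 and 2282 CPM at 0 h to 368, 499.8 and 412 CPM at 16 h (log2 change -1.70 with SE 0.41, adjusted p = 0.00429). Small subunit genes that did not pass were RPS4B (-1.90, adjusted p = 0.0745), the S14 gene WICANDRAFT_27242 (-1.62, adjusted p = 0.0736) and the S25 gene WICANDRAFT_26309 (-1.21, adjusted p = 0.0907).

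Among the 87 members annotated as ribosomal proteins, log2 fold changes at 16 h had an SD of 0.89 across genes, with quartiles of -3.05 and -1.75. Across these genes, which share their libraries, the fold change had a Spearman's rho of 0.12 with gene span. Of the 57 with no other ribosomal protein gene among the members in their KOG family 48 fell, with a median of -2.48, and of the 30 in pairs 26 fell, with a median of -2.53.

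**Figure D3:**
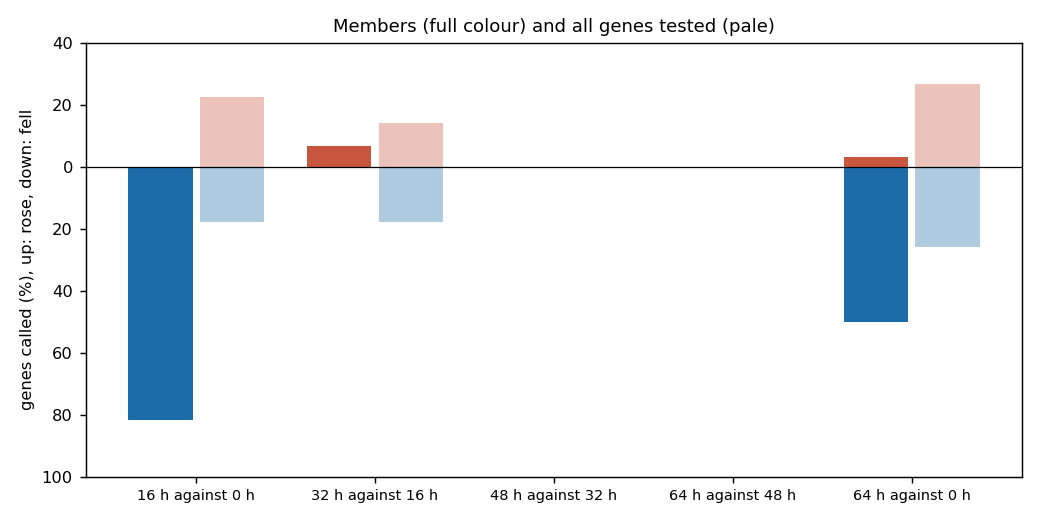
Percent of genes past an adjusted p of 0.05 in each comparison (bars up: rose; bars down: fell), for the 92 members in full colour and for all 6327 genes tested in pale colour. In 16 h against 0 h, 75 of 92 members fell against 17.8% of all genes, and in 64 h against 0 h 46 fell against 25.8%.

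From 16 h to 32 h edgeR called few members. 6 rose (all genes 14.1%) and 0 fell (all genes 17.7%), with a median of 0.24 over the members and -0.06 over all genes. DESeq2 called 12 rises (all genes 16.6%) and limma-voom 11 (14.4%). For falls, 3 members had an unadjusted p under 0.05, DESeq2 called 1 and limma-voom 0. The count of rises was 14 without 0 h replicate 3 (all genes 14.5%), and 11 without 16 h replicate 1 (10.2%) or 64 h replicate 3 (15.8%). It was 2 without 16 h replicate 3 (8.81%) or 32 h replicate 1 (9.73%). Without 16 h replicate 2, 5 rose and 4 fell (all genes 19.5% and 21.2%), and without 32 h replicate 3, 1 fell (all genes 17.2%). The 6 were RPS28A, RPL21A, the S29 gene WICANDRAFT_82643, RPP1A, RPS10B and UBI4. RPS28A, for a small 40S protein near the mRNA exit, stood at 164, 81.000 and 60.7 CPM at 16 h and 629, 356 and 402 at 32 h (log2 change 2.18 with SE 0.53, adjusted p = 0.0068). RPL21A stood at 19.2, 28.3 and 18.2 CPM at 16 h and 60.7, 68.5 and 109 at 32 h (log2 change 1.86 with SE 0.45, adjusted p = 0.00672). In both genes the values of the time points did not overlap. The S29 gene, for a zinc-binding protein of the 40S head, had 42.5, 48.4 and 23.1 CPM at 16 h and 190.2, 124 and 90.5 at 32 h (log2 change 1.83 with SE 0.52, adjusted p = 0.0156). RPP1A, for a P1 protein of the stalk, had 150.2, 115 and 70.6 CPM at 16 h and 399, 290.5 and 308 at 32 h (log2 change 1.57 with SE 0.48, adjusted p = 0.022). RPS10B had 207, 121 and 112 CPM at 16 h and 419, 349.99 and 267 at 32 h (log2 change 1.24 with SE 0.43, adjusted p = 0.0418). Fold changes of the 5 stalk genes were all above 0 (median 1.04, 1 risen), those of the 40S had a median of 0.46 and those of the 60S body one of 0.11. Other members went the other way without passing: RPL3 had -1.63 (adjusted p = 0.112) and the L27 gene WICANDRAFT_36077 -1.99 (adjusted p = 0.0917). How many rose also depends on scaling. With scaling by library size alone 65 rose (all genes 44.4%), but the median of all genes then stood at 1.10. The members' median lay 0.38 above it, against 0.30 with TMM.

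Between 32 h and 48 h 0 members rose and 0 fell, as did 0% of all genes in either direction. In edgeR 9 members had an unadjusted p under 0.05 for a fall and 0 for a rise, and DESeq2 and limma-voom called 0. Over all genes 5.48% had an unadjusted p under 0.05 in edgeR, and 11.5% without 32 h replicate 3. That fit too called 0 members. The median of the members was -0.63 and that of all genes 0.00, with 84 of 92 below 0. RPP0, the protein on which the stalk is built, stood at 3309, 1803 and 1966 CPM at 32 h and 736, 953 and 967 at 48 h: each 48 h value lay under each 32 h value. The lowest mean was at 48 h for 53 members (57.6%, all genes tested 13.4%) and at 16 h for 31 (33.7%, all genes 19.5%).

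The step from 48 h to 64 h gave 0 rises and 0 falls at the adjusted threshold (all genes 0% and 0.0158%), yet 75 members had an unadjusted p under 0.05 for a rise and 2 for a fall, against 24.6% of all genes in either direction. The smallest adjusted p was 0.0511. The median fold change was 1.68 (all genes -0.05), with 85 of 92 above 0. DESeq2 called 68 rises (all genes 9.31%) and limma-voom 6 (all genes 0.3%). Leaving out a single library that stood apart brought calls. Without 64 h replicate 3, 73 members rose and 1 fell, with a median of 2.08, and 9.92% of all genes rose and 8.34% fell. Without 16 h replicate 2, which is in neither group, 54 rose and 1 fell (all genes 7.62% and 5.96%), and without 0 h replicate 3, 32 rose (all genes 2.87%). Leaving out any other single library gave 0 rises. The L15 gene WICANDRAFT_61067 had the largest fold change, at 161, 289 and 222 CPM at 48 h and 2513, 2513 and 485 at 64 h (log2 change 3.04 with SE 0.65, adjusted p = 0.0511). RPP2A stood at 142, 244 and 214 CPM at 48 h and 1889.8, 2232 and 448 at 64 h (log2 change 2.93 with SE 0.60, adjusted p = 0.0511), and RPP0 at 736, 953 and 967 CPM at 48 h and 7177, 7530.3 and 1884 at 64 h (log2 change 2.64 with SE 0.65, adjusted p = 0.0526). In these genes all 64 h values lay above all 48 h values, and replicate 3 was nearest to them. In the 60S body the median was 1.76, in the 40S 1.55 and in the stalk 2.11. The S27 gene WICANDRAFT_84605, the L6 gene WICANDRAFT_27670 and the L34 gene WICANDRAFT_61764 were the ribosomal protein genes with fold changes below 0, at -0.38, -0.39 and -0.45.

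At 64 h against 0 h the members had parted. 46 were lower (all genes 25.8%) and 3 were higher (all genes 26.6%), with a median of -1.20, a range of -5.14 to 2.61 and an SD across the 87 ribosomal protein genes of 1.37, against 0.89 at 16 h. Of the 75 that fell by 16 h, 44 were also lower at 64 h, 30 did not pass and 1, RPS28A, was higher. By subunit 17 of 34 genes of the 40S fell and 1 rose, 25 of 47 of the 60S body fell and 1 rose, and 1 of 5 of the stalk fell and 1 rose. Without 0 h replicate 3, 33 fell and 9 rose (all genes 24.7% and 25.5%). Without 64 h replicate 3, 35 fell and 6 rose (all genes 25.1% and 23.8%). The rises numbered 1 without 0 h replicate 1, 0 h replicate 2 or 64 h replicate 2 (all genes 21.3%, 21.4% and 25.5%).

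**Figure D4:**
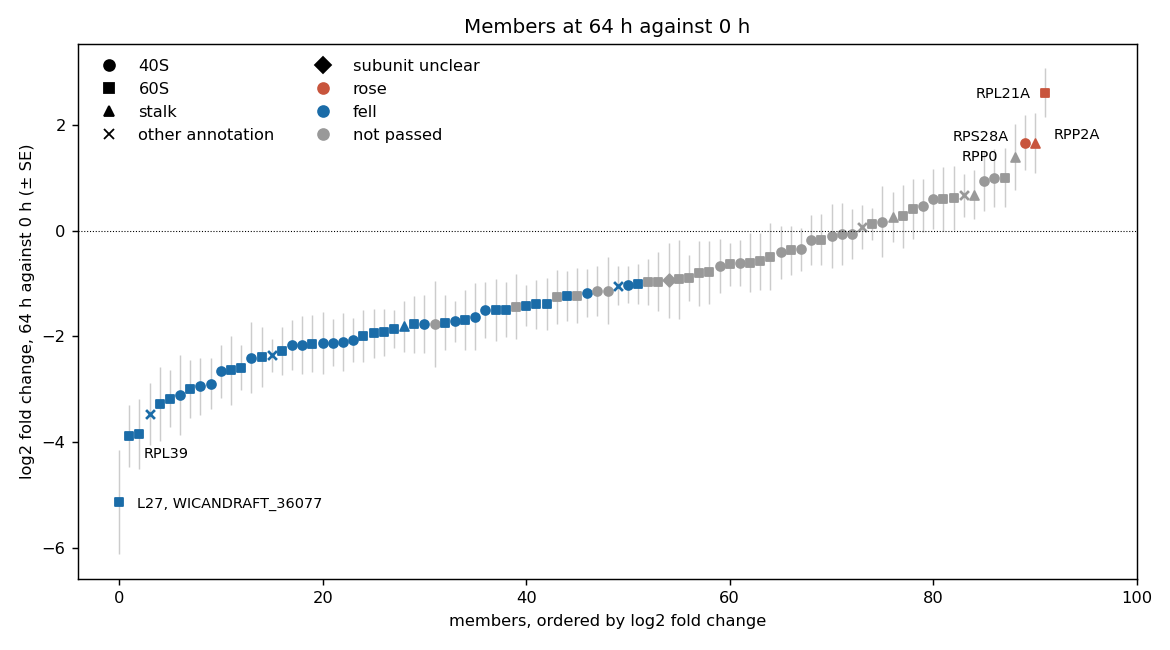
Log2 fold change at 64 h against 0 h with its approximate SE (y axis) for the 92 members in order of that value (x axis); symbols give the subunit and colours the call. The values run from -5.14 to 2.61, with 46 falls at the left and 3 rises at the right. The lowest value lies apart from the next (-3.88, RPL39), and the highest from the next (1.66, RPP2A).

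The 3 members higher at 64 h with TMM scaling all belong to gene pairs. With library size scaling RPP0, which has no partner among the members, rose too (log2 change 1.69 with edgeR, adjusted p = 0.00925). RPL21A, a copy of the gene for L21, was at 29.8, 31.9 and 74.96 CPM at 0 h and 321, 368 and 145 at 64 h (log2 change 2.61 with SE 0.46, adjusted p = 0.000346). All 64 h values lay above all 0 h values. RPP2A was at 339.98, 313 and 794 CPM at 0 h and 1889.8, 2232 and 448 at 64 h (log2 change 1.66 with SE 0.57, adjusted p = 0.0244), and RPS28A at 228, 194 and 471 CPM at 0 h and 1145, 1272 and 401 at 64 h (log2 change 1.66 with SE 0.52, adjusted p = 0.0152). For these genes 64 h replicate 3 lay within the 0 h range, below 0 h replicate 3. Among the 57 ribosomal protein genes without a partner 27 fell, and of the 30 in pairs 16 fell and 3 rose, a description with no test.

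The largest fall over the whole course was that of a pair member, and the next that of RPL39, which has no partner among the members. The L27 gene WICANDRAFT_36077 was at 277, 359 and 269 CPM at 0 h and 6.58, 16.1 and 3.01 at 64 h (log2 change -5.14 with SE 0.99, adjusted p = 0.000639). The L6 gene WICANDRAFT_27670 was at 218, 221 and 333 CPM at 0 h and 15.7, 28.5 and 9.61 at 64 h (log2 change -3.84 with SE 0.66, adjusted p = 0.000272), and the L34 gene WICANDRAFT_61764 at 74.5, 86.9 and 79.5 CPM at 0 h and 6.73, 14.9 and 3.17 at 64 h (log2 change -3.28 with SE 0.70, adjusted p = 0.00141). None of these genes overlapped between the time points. RPL39 remained low (log2 change -3.88 with SE 0.58, adjusted p = 9.23e-05), as did the L9 gene WICANDRAFT_35384 (-3.17, adjusted p = 0.000261). In the small subunit the S3A gene WICANDRAFT_25693 (-3.10, adjusted p = 0.00346), RPS17B (-2.94, adjusted p = 0.000495) and RPS20 (-2.89, adjusted p = 0.000197) had the largest falls. RPS31 was lower too, at 285, 358 and 359 CPM at 64 h (-2.06, adjusted p = 0.000933), and in it 64 h replicate 3 did not stand apart.

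Over the 5 time points 88 of the 92 changed in the F test (all genes 68.5%). The 4 that did not pass were the S14 gene WICANDRAFT_27242, the S27 gene WICANDRAFT_84605, UBI4 and MRPL38. Another 11 passed the F test and none of the 5 comparisons. The 5 of them with the smallest adjusted p were the L13 gene WICANDRAFT_83880, the L15 gene WICANDRAFT_61067, RPP0, RPL3 and the S25 gene WICANDRAFT_26309, and the others were the L18 gene WICANDRAFT_40810, RPL19A, RPL28, RPL10, RPS4B and SNU13. The highest mean level was at 0 h for 73 members (79.3%, against 30.5% of all genes tested). At 64 h it was for 18 (19.6%, near the 18.9% of all genes) and at 48 h for 1 (1.09%, all genes 13.7%). It was at 64 h for 4 of the 5 stalk genes, 7 of the 47 genes of the 60S body and 6 of the 34 genes of the 40S.

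The stalk took a larger part of the large subunit's counts from 32 h on. The 5 stalk genes made up 8.01%, 7.42% and 12.2% of large subunit counts at 0 h, and 12.6%, 24.8% and 9.61% at 16 h. At 32 h they made up 30.8%, 26.4% and 22.2%. The 48 h libraries gave 22.3%, 18.3% and 20.6%, and those of 64 h 29.4%, 25.99% and 27.7%. From 32 h on every library lay above every 0 h library, and here 64 h replicate 3 lay between its replicates. Most of this was RPP0, whose full series was 1235, 1073 and 4006 CPM at 0 h, then 1275, 1151 and 466 at 16 h and 3309, 1803 and 1966 at 32 h, then 736, 953 and 967 CPM at 48 h and 7177, 7530.3 and 1884 at 64 h. Against 0 h, RPP0 at 64 h missed the threshold (adjusted p = 0.0744, log2 change 1.39), and its 0 h replicate 3 lay above 64 h replicate 3. RPP2B, by contrast, was the stalk gene that fell, from 219, 226 and 862 CPM at 0 h to 45.6, 52.99 and 32.4 CPM at 16 h and 133, 159.8 and 80.9 CPM at 64 h (log2 change -1.81 with SE 0.48, adjusted p = 0.00603). RPP1A and RPP1B stood between them, with 0.26 (adjusted p = 0.659) and 0.68 (adjusted p = 0.231) at 64 h against 0 h.

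The ratio of summed 40S counts to summed 60S counts, stalk included, moved little beside these changes. It was 0.674, 0.661 and 0.700 at 0 h, 0.620, 0.553 and 0.599 at 16 h, and 0.769, 0.745 and 0.677 at 32 h. At 48 h it was 0.748, 0.715 and 0.745, and at 64 h 0.602, 0.589 and 0.731. All 16 h ratios lay below all 0 h ratios and all 48 h ratios above them. The sums rest on the most abundant genes. The median gene of each subunit told a different order for 16 h: against 0 h the log2 ratio by sums was -0.20 at 16 h, while the difference of medians over genes was 0.05. No p is given for these sums, since they are scores over the members.

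For 15 KOG families the rule found a pair of ribosomal protein genes, 30 genes in all. Whether the copies of a pair moved alike was tested on the log2 ratio of their counts in each library (0.5 counts added), which does not depend on scaling, with an exact permutation test of the F statistic over all 1401400 ways to divide the 15 libraries into the 5 time points. After Benjamini-Hochberg adjustment over the 15 pairs, 11 ratios differed between time points: L21, L13, P2, L6, S27, L9, L27, S15/S22, S28, P1 and S4. The ratios of S6, L34, L7A and S3A did not pass (adjusted p = 0.0714, 0.0726, 0.0742 and 0.234). In 11 of the 15 pairs both copies fell from 0 h to 16 h, a step in which 26 of the 30 genes fell (all genes 17.8%). Identity between copies was not assessed, and reads shared by near-identical copies may have been split or dropped in counting, which makes the level of each copy less certain than that of the pair. Ratios are of counts and are not adjusted for gene length.

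**Figure D5:**
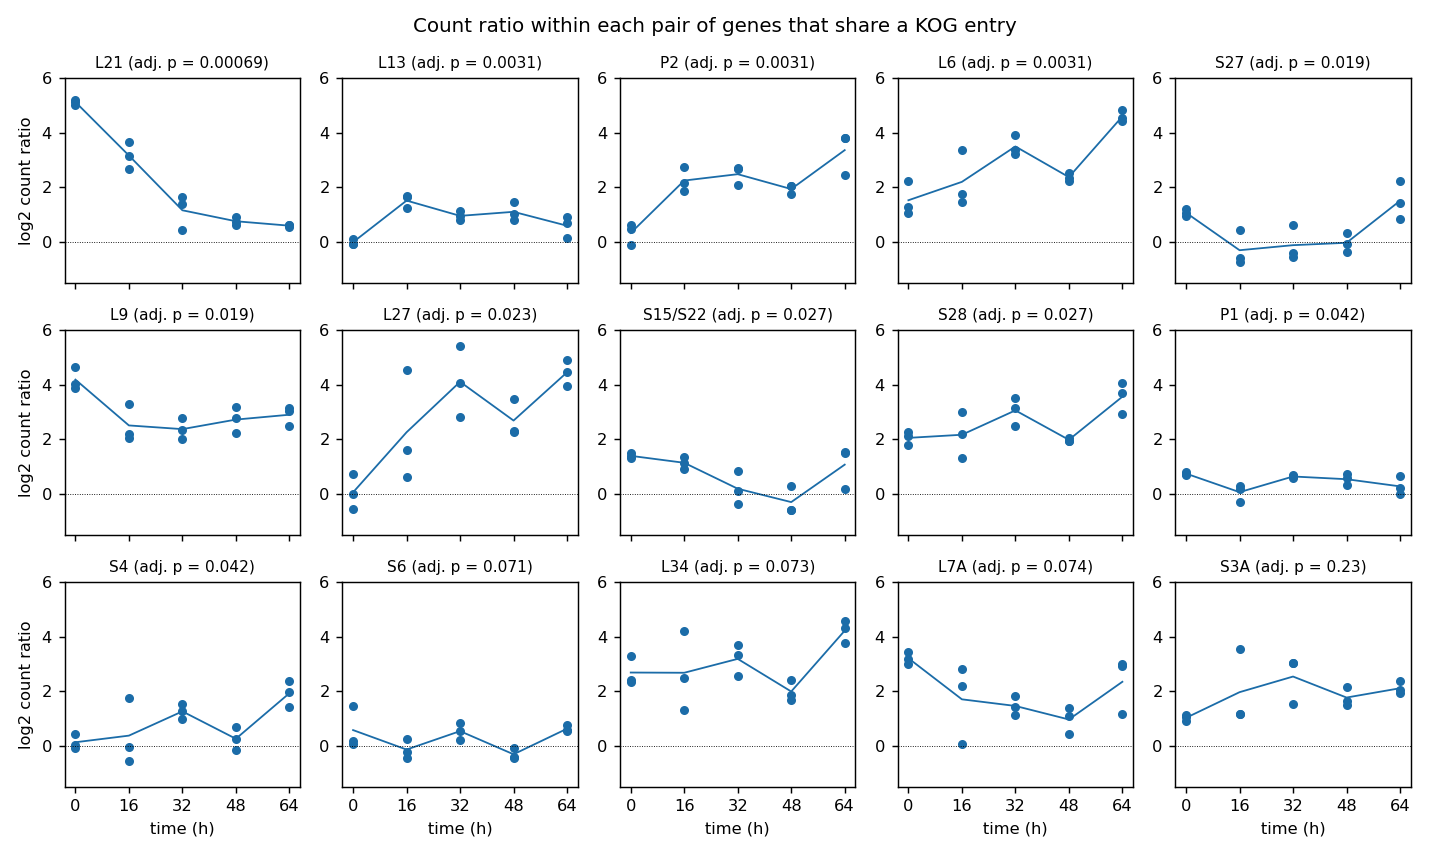
Log2 ratio of the counts of the more abundant to the less abundant copy over all libraries (y axis) against time in h (x axis) for the 15 gene pairs; points are libraries, lines join the means of 3, and titles give the exact permutation p adjusted over the 15 pairs. The L21 ratio runs from 5.13 at 0 h to 0.60 at 64 h, and the P2, L6 and L27 ratios are higher at 64 h than at 0 h.

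The pair with the largest change of ratio codes for L21, a protein of the 60S body. The log2 ratio of WICANDRAFT_62257 to RPL21A was 5.15, 5.04 and 5.21 at 0 h, 3.68, 2.68 and 3.15 at 16 h and 1.66, 1.39 and 0.43 at 32 h. It was 0.73, 0.62 and 0.93 at 48 h and 0.62, 0.63 and 0.53 at 64 h (exact permutation p = 4.57e-05, adjusted p = 0.000685). No 0 h or 16 h value overlapped any later one, and 64 h replicate 3 lay with its replicates. RPL21A thus made up 2.77% of the pair's counts at 0 h and 39.8% at 64 h. WICANDRAFT_62257 itself went from 1059.9, 1049 and 2784 CPM at 0 h to 247, 182 and 162 CPM at 16 h and 494, 569.5 and 209.6 CPM at 64 h, a fall at 64 h of -1.94 on the log2 scale (adjusted p = 0.00321), while its partner rose.

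The stalk pair P2 also shifted. The log2 ratio of RPP2A to RPP2B was 0.33 ± 0.40, 2.25 ± 0.45, 2.49 ± 0.35, 1.94 ± 0.17 and 3.37 ± 0.78 at 0, 16, 32, 48 and 64 h (SD, n = 3; exact permutation, adjusted p = 0.00308). The single values at 0 h were 0.63, 0.47 and -0.12, and those at 64 h 3.83, 3.80 and 2.47, so the time points did not overlap. RPP2B made up 44.4% of the pair's counts at 0 h and 8.83% at 64 h. For P1 the ratio moved far less: RPP1A to RPP1B was 0.75 ± 0.04, 0.06 ± 0.31 and 0.28 ± 0.33 at 0, 16 and 64 h (adjusted p = 0.0415 by the exact permutation test).

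In the L6 and L27 pairs the less abundant copy made up a small part of the counts at 64 h. RPL6A to WICANDRAFT_27670 had a log2 ratio of 1.28, 1.06 and 2.25 at 0 h and 4.84, 4.53 and 4.45 at 64 h (exact permutation, adjusted p = 0.00308), and the latter's part of the pair went from 25.7% to 3.94%. RPL6A at 64 h against 0 h did not pass (-0.96, adjusted p = 0.16). RPL27B to WICANDRAFT_36077 had 0.00, -0.57 and 0.74 at 0 h, 1.62, 4.54 and 0.62 at 16 h and 4.93, 3.97 and 4.49 at 64 h (adjusted p = 0.0228 by the exact permutation test). The 16 h libraries disagreed, with replicate 2 far above the others. It was also the highest 16 h library in the ratios of L6, S28, S4, S6, L34 and S3A, and the lowest in those of L7A, L21, L13, L9 and P1.

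The other pairs that passed changed by less or in other shapes. The L13 copies were level at 0 h (0.11, -0.08 and -0.07), and WICANDRAFT_83880 led WICANDRAFT_76631 by 1.67, 1.24 and 1.64 at 16 h (exact permutation, adjusted p = 0.00308). The L9 ratio, WICANDRAFT_35384 to WICANDRAFT_77524, fell from 4.20 ± 0.40 at 0 h to 2.51 ± 0.67 at 16 h and did not return (2.91 ± 0.34 at 64 h; adjusted p = 0.019 by the exact permutation test). The S27 ratio, WICANDRAFT_83136 to WICANDRAFT_84605, dipped and came back: 1.07 ± 0.13, -0.31 ± 0.64, -0.12 ± 0.64, -0.03 ± 0.35 and 1.51 ± 0.71 at 0, 16, 32, 48 and 64 h (adjusted p = 0.019, exact permutation). S15/S22 did so later, with RPS22A to WICANDRAFT_64611 at 1.40 ± 0.10, -0.30 ± 0.51 and 1.07 ± 0.77 at 0, 48 and 64 h (adjusted p = 0.0272, exact permutation). For S28, RPS28A to WICANDRAFT_86936 was 2.06 ± 0.23 and 3.57 ± 0.59 at 0 and 64 h (adjusted p = 0.0272, exact permutation), and for S4, WICANDRAFT_84074 to RPS4B was 0.13 ± 0.26 and 1.93 ± 0.48 at 0 and 64 h (adjusted p = 0.0415, exact permutation). The ratios of 5 pairs, L21, L13, P2, L6 and S27, passed under every alternative tried. The remaining pairs passed under some of them only.

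Levels were compared between genes per kb of gene span. RefSeq spans include introns, which lowers the value of genes that hold them. On this scale the S25 gene WICANDRAFT_26309, whose product is known from S. cerevisiae for its part in initiation at internal ribosome entry sites, had the highest mean of all members at every time point. Its means at 0, 16, 32, 48 and 64 h were 3764 ± 2555, 1626 ± 1099, 4524 ± 1494, 1965 ± 324 and 7506 ± 2100 CPM per kb (SD, n = 3). At 0 h RPS2 (3718 ± 2807), RPS20 (2791 ± 1698), RPL10 (2569 ± 158) and RPL30 (2325 ± 1545) came next. Their spreads overlap, so no order among them is read. At 64 h the next were RPP2A (4746 ± 2950), RPP0 (4719 ± 2698), RPL28 (3505 ± 2058) and RPS28A (3404 ± 1703). Their SDs were large since 64 h replicate 3 lay below the others. The lowest means over all libraries were those of RLP7 (12.4), the L9 gene WICANDRAFT_77524 (25.4) and RLP24 (52.4 CPM per kb).

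The 5 members with other names followed the ribosomal protein genes in part. RLP24, for a factor that holds the place of L24 on the immature 60S, had 76.2, 81.5 and 37.3 CPM at 0 h and 4.09, 9.33 and 4.14 at 64 h (log2 change -3.47 with SE 0.59, adjusted p = 0.000236). RLP7, which acts in early 60S assembly, had 19.9, 23.6 and 26.8 CPM at 0 h and 3.09, 4.65 and 5.93 at 64 h (log2 change -2.36 with SE 0.30, adjusted p = 2.75e-05). Both fell, with no overlap between the time points, and unlike most ribosomal protein genes they had fold changes below 0 from 48 h to 64 h (-1.30 and -0.78, neither past the threshold). UBI4, which supplies ubiquitin under stress, rose from 77.4, 139 and 132 CPM at 16 h to 314, 293 and 186 CPM at 32 h (log2 change 1.18 with SE 0.42, adjusted p = 0.0444). SNU13 passed in none of the 5 comparisons. MRPL38 fell at 64 h against 0 h (-1.04, adjusted p = 0.0268).

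Other genes of the ribosome's making and working were listed by annotation and are described by counts, with no test between lists. From 0 h to 16 h, when 17.8% of all genes fell and 22.6% rose, of 61 mitochondrial ribosomal protein genes 19 (31.1%) fell and 1 rose (median -0.57), of 41 ribosome biogenesis genes 4 (9.76%) fell and 2 rose (median -0.47), and of 45 translation factor genes 13 (28.9%) fell and 1 rose (median -0.76). For the cytosolic members the median was -2.37. From 16 h to 32 h 10 mitochondrial ribosomal protein genes rose (16.4%, near the 14.1% of all genes) and 0 fell, and 13 biogenesis genes fell (31.7%, all genes 17.7%) and 1 rose. At 64 h against 0 h 28 of the 41 biogenesis genes fell (68.3%, all genes 25.8%) and 1 rose (median -1.23). The subunits of RNA polymerases I and III, which make rRNA, 5S rRNA and tRNA, showed 3 falls (15.8%, near the share of all genes) and 1 rise of 19 at 16 h, and 8 falls (42.1%) and 2 rises at 64 h against 0 h. Mitochondrial ribosomal proteins took 0.130% to 0.154% of counts at 0 h, 0.0643% to 0.0836% at 16 h and 0.255% to 0.313% at 32 h.

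Of 10 genes for known regulators of ribosomal protein transcription or of TOR signalling, 4 fell and 2 rose at 16 h. Of all genes tested 17.8% fell and 22.6% rose in that comparison, so the share of regulators that rose was near that of all genes. The 10 genes were not tested as a list against all genes. RAP1, whose product binds ribosomal protein promoters in S. cerevisiae, went from 97.8, 90.5 and 76.3 CPM at 0 h to 22.1, 6.07 and 21.7 CPM at 16 h (log2 change -2.40 with SE 0.46, adjusted p = 0.000937). HMO1 (-1.65), CBF1 (-1.84) and TBF1 (-1.61) fell as well; Cbf1 and Tbf1 act at these promoters in Candida albicans and other yeasts. LST8, a subunit of the TOR complexes, rose (3.26, adjusted p = 0.00273), as did TAP42 (1.64, adjusted p = 0.00389), a TOR effector on phosphatases. IFH1 (-0.11) and SFP1 (-0.27) did not pass at 16 h, and both fell from 16 h to 32 h (-2.84 (adjusted p = 0.0179) and -2.76 (adjusted p = 0.00954)), a step in which few members moved. Of the chaperones at the tunnel exit, EGD1 and EGD2, which form the nascent chain complex, fell at 16 h (-3.19 (adjusted p = 3.76e-05) and -1.46 (adjusted p = 0.026)), and SSZ1 rose (0.94 (adjusted p = 0.0312)). STM1, whose product clamps idle ribosomes in S. cerevisiae, fell (-1.65 (adjusted p = 0.00282)).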

How the data were processed

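Whole fermentation broth was sampled at 5 time points with 3 biological replicates each, per the labels. Total RNA was made into polyA libraries, per the labels' protocols. The deposited values are raw read counts per gene, not normalised by the authors. The submitters' processing notes name fastp, HISAT2 and HTSeq. Their versions, the strand setting and the genome build are not given in the sources used here, so no coordinates are printed. Without a known strand setting, reads of a gene and an antisense partner cannot be told apart. All 6571 identifiers matched RefSeq locus tags, which gave symbols and gene spans. Symbols rest on homology.

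edgeR 4.0.16 (R 4.3.3) was used for all fits. filterByExpr left 6327 genes, and TMM factors ran from 0.389 to 1.83. A single quasi-likelihood model held 1 mean per time point and all 15 libraries, with 10 residual degrees of freedom and a common coefficient of variation of 0.418. Each time point was compared with the one before it and 64 h with 0 h, beside an F test over time, each adjusted by Benjamini-Hochberg over all genes with a threshold of 0.05. SE is the size of the fold change over the square root of F, and is approximate. A floor of 3 counts equals 0.0748 to 0.171 CPM and covers counting error only. Replicates of a group differed by more than sampling noise in every pair (chi-square per degree of freedom at least 63.0). Alternatives were DESeq2 1.42.0, limma-voom (limma 3.58.1), library size scaling, median-of-ratios scaling, other low-count filters (none, or a mean of at least 10 CPM), fitting the 6 libraries of a comparison alone, a replicate block, list membership and each library left out. Fits that left 2 libraries in a group pooled the spread over all groups. The scripts were tested on simulated data.

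The members and lists were chosen with earlier results of these data known. Genes were named by these rules: the 6 largest changes in each direction per contrast among called members without overlap of the values, members called against the majority, both copies of each pair, the 5 highest levels per kb per time point and the 3 lowest over all, a panel (stalk, ubiquitin fusions, L39, S2, S3, L3, L5 and L11) and up to 5 members that changed in the F test only. The other members and related genes named were picked as examples of a role, after their values were seen.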

Additional observations from a re-analysis of the deposited data

How the results depend on the processing

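The falls from 0 h to 16 h (75) and from 0 h to 64 h (46) and the changes over time (88) stayed within 1.5 times under every alternative; leaving out 1 library gave 62 to 80, 33 to 52 and 81 to 89. The rises and falls between 32 h and 48 h stayed at 0. From 16 h to 32 h, the 6 rises became 12 with DESeq2 (all genes 16.6%), 11 with limma-voom (14.4%) and 65 with library size scaling (44.4%). They became 10 without 16 h replicate 2 and 64 h replicate 3 (all genes 22.8%), and 14 without 0 h replicate 3 and 16 h replicate 2 (21.2%). The 0 falls became 1, 8 and 4 with DESeq2 and these exclusions (all genes 21.1%, 24.1% and 22.3%). From 48 h to 64 h, the 0 rises became 68 with DESeq2 (all genes 9.31%), 6 with limma-voom (0.3%) and 19 with median-of-ratios size factors (1.96%). They became 4 with library size scaling (0.237%) and 23 with a mean of at least 10 CPM (2.48%). With the exclusions they became 81 and 65 (14.6% and 9.67%), and the falls 2 and 1 (15.7% and 7.07%). The 3 rises from 0 h to 64 h became 8 with library size scaling (all genes 27.2%), and 6 and 9 with the exclusions (27.2% and 29.4%). Leaving out 1 library gave 2 to 14 rises and 0 to 4 falls from 16 h to 32 h, 0 to 73 and 0 to 1 from 48 h to 64 h, 1 to 9 rises from 0 h to 64 h, and 6 to 14 of 15 pairs against 11. In the same fits 8.81% to 19.5% of all genes rose and 10.6% to 21.2% fell from 16 h to 32 h. From 48 h to 64 h 0% to 9.92% rose and 0% to 8.34% fell, and from 0 h to 64 h 21.3% to 29.1% rose. The exclusion of the 0 h and 16 h libraries, and 2 membership changes, were chosen after seeing the data; no membership change moved a count by over 1.5 times. The cause of these shifts was not tested. By medians over genes in place of sums, the log2 ratio of 40S to 60S against 0 h was 0.052, 0.38, 0.29 and 0.17 at 16, 32, 48 and 64 h, against -0.20, 0.11, 0.12 and -0.09. Of 525 values of named genes under alternatives 494 kept direction and call, 31 kept the direction only and 0 reversed. Library size scaling moved the median of all genes by -0.60 at 16 h against 0 h and by 1.10 at 32 h against 16 h; relative to it the members' medians were -2.41 and 0.38, against -2.47 and 0.30 with TMM.

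Same replicate numbers did not pair libraries: of 30 same-number pairs of libraries 6 correlated over 0.1 in their deviations from the group mean (median -0.124), and 0 of 15 libraries correlated best with their own number. With a replicate block 70 members fell at 16 h (all genes 16.2%) and 4 rose at 32 h (12.0%). At 64 h against 0 h 40 fell and 2 rose (all genes 23.9% and 24.6%). With this block 82 members changed over time (3901 of all 6327 genes), and 11 pairs passed.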

Other observations

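Some genes are cytosolic ribosomal proteins by RefSeq symbol or KEGG entry, but their KOG text does not hold the words of the rule. Among them RPS18A, for a protein of the 40S head, fell from 596, 579.8 and 1469 CPM at 0 h to 120.4, 56.1 and 102 CPM at 16 h (-3.25 (adjusted p = 0.000362) as log2 fold change with edgeR). RPS9B had -2.71 (adjusted p = 0.000307) and RPS30A -1.46 (adjusted p = 0.0173), and both fell at 16 h. The L4 gene WICANDRAFT_85172 did not pass (-1.09, adjusted p = 0.242). At 64 h against 0 h RPS18A was lower (-1.89 (adjusted p = 0.0073)), and RPS9B, RPS30A and the L4 gene did not pass.

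Escort proteins bind single ribosomal proteins on their way to assembly. Of 10 such genes, 1 passed at 16 h against 0 h (all genes 22.6% risen and 17.8% fallen), with a median of 0.06 over the list. It was TSR2 (log2 change 0.999 (adjusted p = 0.0493)), the escort of S26, which rose, while RPS26A itself fell (-2.86 (adjusted p = 0.000889)). From 16 h to 32 h 3 escort genes fell (all genes 17.7%), and at 64 h against 0 h 6 fell (all genes 25.8%), among them YAR1 (-1.83 (adjusted p = 4.01e-05)), the escort of S3, and SYO1 (-0.80 (adjusted p = 0.0288)), which carries L5 and L11 into the nucleus.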
